A study of Mus musculus with 26 samples.

Results

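Rab25, Epcam, Cldn9 and Tmprss6 are 4 genes best known from epithelial cells that stood out in ribosome-bound RNA pulled down with a tag aimed at gonadotropin-releasing hormone (GnRH) neurons. They were chosen by name, for how far they rose in that RNA over the rest of the tissue, and they are 4 of the 23107 genes in the deposited table. The contrast of pull-down with supernatant therefore chose them, and their values in it are a description without a test. The study profiled translating ribosome affinity purification by RNA sequencing (TRAP-seq), a method in which a tagged ribosomal protein, made in 1 cell type alone, lets the ribosomes of that type and the transcripts on them be pulled out of a mixed tissue. Preoptic area punches were pooled from 5 to 7 mice, and each pool gave an immunoprecipitate (the pulled-down RNA) and a supernatant (the RNA left behind), so 13 pools gave 26 libraries.

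All mice, the intact ones included, came from males homozygous for a GnRH CRE allele bred to females homozygous for a floxed-stop L10a-GFP allele, and were 55 to 165 days old. The pools were 3 of intact females in diestrus, 3 of ovariectomized females, 4 of intact males and 3 of orchidectomized males. The tag is carried by any cell in which the Cre driver has been active at some time in its history, and each library is an average over several animals. In such bulk RNA, fewer cells of a type and less RNA per cell cannot be told apart.

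Rab25 encodes a small GTPase of the Rab11 group that directs recycling endosomes in polarized epithelia. Epcam encodes an adhesion molecule of the epithelial surface. Cldn9 encodes a claudin, one of the transmembrane proteins that build tight junctions. Tmprss6 encodes matriptase-2, a membrane serine protease best known from liver, where it cleaves a coreceptor and lowers expression of the iron hormone hepcidin. GnRH neurons arise in the olfactory placode, an epithelial thickening of the embryonic head, and migrate into the forebrain, where they drive the pituitary and through it the gonads.

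Total counts ran from 27217252 to 56668581 per library. Levels are given as CPM (counts per 1e6 counts of library size) after trimmed-mean (TMM) scaling of the library sizes. Gnrh1, the transcript that defines the targeted neurons, was higher in the immunoprecipitate in 13 of 13 pools. It ran from 3174 to 20931 CPM in the immunoprecipitates and from 47.5 to 1579 CPM in the supernatants. The library labelled as supernatant of intact female replicate 2 held the 1579 CPM. Its own immunoprecipitate held the lowest Gnrh1 level of the 13, so that pool had the smallest Gnrh1 ratio, 1.01 on the log2 scale against a median of 6.46. The labels also number the libraries from 1 to 30. Numbers 1 to 10 hold 4 pools, all of intact mice, whose immunoprecipitates had Gnrh1 between 16896 and 20931 CPM, and the other 9 pools, with numbers 11 to 30, stood between 3174 and 8774 CPM. What the numbers stand for is not given in the labels.

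The positions below are those of GENCODE M21 on mm10 (GRCm38), the build the submitters' processing notes name. Rab25 lies at chr3:88542029-88548300 on the minus strand, with 5 exons after merging its transcripts. Epcam lies at chr17:87635979-87651129 on the plus strand, with 10. Cldn9 lies at chr17:23682584-23684026 on the minus strand and is a single exon of 1443 bases. Tmprss6 lies at chr15:78439667-78468634 on the minus strand, with 18. No annotated gene overlaps any of them in the annotation used.

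The 250 bases before the start are shown for Rab25 and Epcam, the 2 of the 4 genes that matched the RefSeq promoter table (GRCm38.p6), because both hold short words bound in epithelial gene control. Each is written on its gene's own strand, 5′ to 3′, and capitals mark the matches to the motifs named after them. The Rab25 window is chr3:88548280-88548529 and the Epcam window chr17:87635729-87635978. RefSeq starts Rab25 further inside the gene than GENCODE does, so the last bases of its window lie within the gene as placed above, while both annotations start Epcam at the same base.
Rab25: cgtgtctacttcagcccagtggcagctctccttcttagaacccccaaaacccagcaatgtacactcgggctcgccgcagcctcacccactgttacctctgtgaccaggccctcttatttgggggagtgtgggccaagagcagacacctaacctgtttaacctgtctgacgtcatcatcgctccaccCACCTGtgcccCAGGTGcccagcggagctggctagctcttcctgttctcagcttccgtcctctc
Epcam: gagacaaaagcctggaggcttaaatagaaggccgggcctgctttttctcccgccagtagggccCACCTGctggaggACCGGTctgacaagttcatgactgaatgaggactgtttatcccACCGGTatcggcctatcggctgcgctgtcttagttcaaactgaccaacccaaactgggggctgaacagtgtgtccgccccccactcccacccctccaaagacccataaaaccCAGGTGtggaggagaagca

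Both windows were searched on both strands for CACCTG (reverse complement CAGGTG), the E2 box bound by the Zeb and Snai repressors of epithelial genes, and for the palindrome ACCGGT, a grainyhead-like core. These words were chosen after the sequences had been seen, so their presence is a description. Rab25 held 2 E2 boxes, from -64 to -59 and from -53 to -48, counting the base before the RefSeq start as -1. Epcam held 2 E2 boxes, from -187 to -182 and from -19 to -14. Epcam also held ACCGGT from -174 to -169 and from -131 to -126. Of 32851 windows of this length in the table, 17.2% held at least 1 E2 box and 2.06% held 2 or more. ACCGGT was in 1.86% of the windows, with 2 or more in 0.0274%. The TATA word TATAAA (in 12.4% of windows) and the OTX word TAATCC (in 6.25%) were in neither of these windows as spelled. No match overlapped another.

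All 4 genes were higher in the immunoprecipitate in 13 of 13 pools, with supernatant medians of 0.328 to 1.34 CPM and pull-down means of 16.8 to 51.3 CPM. All 4 passed the filter on low counts in every fit. Across all tested genes, 21.3% were called higher and 21.6% lower in the immunoprecipitate at an adjusted p under 0.05 (edgeR's quasi-likelihood test with Benjamini-Hochberg adjustment), and nothing is read from the members' own calls, since this contrast chose them. By log2 fold change among 16713 tested genes, Rab25 ranked 3 with 5.87 (SE 0.38), Gnrh1 itself 4 with 5.58 (SE 0.51), Epcam 5 with 5.46 (SE 0.43), Tmprss6 15 with 4.86 (SE 0.29) and Cldn9 16 with 4.82 (SE 0.32). Without the supernatant of intact female replicate 2, the values were 6.38 for Rab25, 6.07 for Epcam, 5.10 for Cldn9 and 5.22 for Tmprss6. On the 9 pools with library numbers 11 to 30 alone they were 5.28, 4.46, 4.03 and 4.28.

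Rab25 averaged 30.4 ± 10.5 CPM (SD, n = 13) in the immunoprecipitates. In females it stood at 47.0, 35.7 and 18.6 CPM in the intact pools, replicates 0, 1 and 2, and at 29.9, 18.7 and 40.0 CPM in the ovariectomized pools. In males it stood at 41.6, 43.7, 25.5 and 20.6 CPM in the intact pools, replicates 0 to 3, and at 19.1, 20.8 and 34.4 CPM in the orchidectomized pools. The 2 lower values of the intact males and the lowest of the intact females came from libraries numbered above 10, and the ranges of the 4 conditions overlapped. In the supernatants Rab25 ran from 0.0626 to 3.37 CPM with a median of 0.328, and its highest level was again in intact female replicate 2. No supernatant reached the lowest immunoprecipitate, 18.6 CPM. The ratio within a pool ran from 2.47 on the log2 scale in intact female replicate 2 to 9.10 in orchidectomized male replicate 2. That upper value rests on a supernatant count of 3 and has a 95% counting interval of 7.55 to 11.4.

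Epcam averaged 37.9 ± 23.9 CPM (SD, n = 13) in the immunoprecipitates and spread the most of the 4 genes, over a 7.14-fold range. In females it stood at 41.1, 66.2 and 14.1 CPM in the intact pools and at 30.8, 12.3 and 24.9 CPM in the ovariectomized pools. In males it stood at 87.8, 71.8, 26.1 and 22.4 CPM in the intact pools and at 14.9, 36.1 and 44.3 CPM in the orchidectomized pools. The 2 highest libraries were the intact males numbered up to 10, and the lowest was a pool of ovariectomized females. In the supernatants Epcam ran from 0.207 to 5.62 CPM, with a median of 0.429. Intact female replicate 2 held the 5.62 CPM, and its pool ratio was 1.33 on the log2 scale against a median of 6.09 over the 13 pools.

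Cldn9 averaged 16.8 ± 7.16 CPM (SD, n = 13) in the immunoprecipitates. In females it stood at 11.1, 21.9 and 5.19 CPM in the intact pools and at 16.7, 9.93 and 15.7 CPM in the ovariectomized pools. In males it stood at 25.98, 29.5, 12.5 and 11.02 CPM in the intact pools and at 15.99, 17.5 and 25.4 CPM in the orchidectomized pools. Intact male replicates 0 and 1 held the top values, and the orchidectomized males lay within the range of the intact males. In the supernatants Cldn9 ran from 0.107 to 2.58 CPM, with a median of 0.438. Its pool ratio was lowest in intact female replicate 2, at 1.01 on the log2 scale, with a median of 5.19.

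Tmprss6 averaged 51.3 ± 19.7 CPM (SD, n = 13) in the immunoprecipitates. In females it stood at 43.6, 49.8 and 23.2 CPM in the intact pools and at 47.0, 19.7 and 70.2 CPM in the ovariectomized pools. In males it stood at 82.9, 80.4, 38.0 and 41.2 CPM in the intact pools and at 49.2, 53.0 and 69.0 CPM in the orchidectomized pools. The lowest level, 19.7 CPM, was in a pool of ovariectomized females, and the highest, 82.9 CPM, in a pool of intact males. In the supernatants Tmprss6 ran from 1.07 to 6.98 CPM with a median of 1.34, and the highest level was once more that of intact female replicate 2. Its pool ratios spread least, with an SD of 1.21 on the log2 scale against 1.59 to 1.89 for the other 3.

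**Figure D1:**
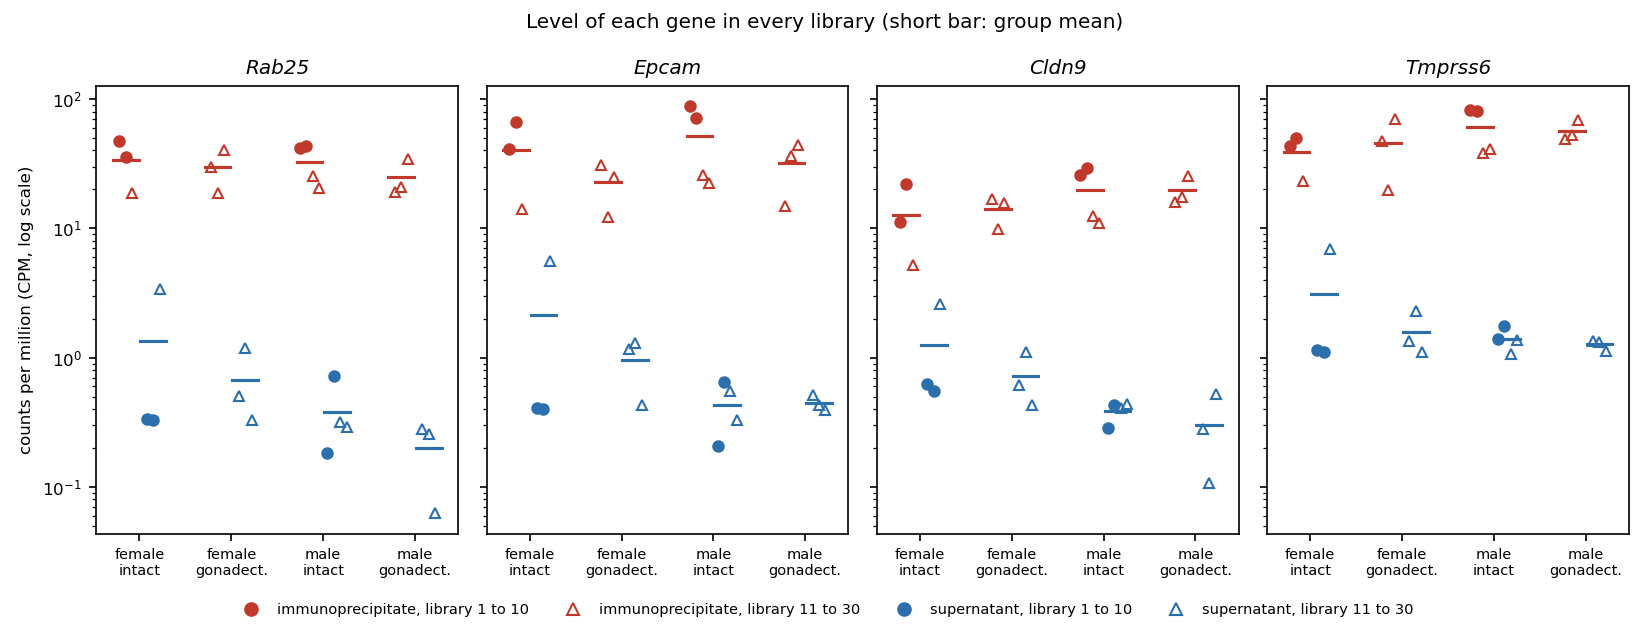
Level of each of the 4 genes in every library, in CPM on a log scale, by condition. Red marks are immunoprecipitates, blue marks supernatants, filled circles libraries numbered 1 to 10, open triangles libraries numbered 11 to 30, and short bars group means. For each gene every immunoprecipitate lies above every supernatant, which describes the contrast that chose the genes. How many of all tested genes separate in this way was not counted. The smallest gap is that of Cldn9, between 5.19 and 2.58 CPM, both from the pool of intact female replicate 2.

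The order of the genes changed once length was taken into account. Per kilobase of merged exon, Rab25 had the highest level in 12 of 13 immunoprecipitates, with a mean of 28.1 ± 9.74 CPM per kb (SD, n = 13). Epcam averaged 18.4 ± 11.6 and Tmprss6 16.1 ± 6.18 CPM per kb. Their order varied between libraries, since Epcam was the lowest of the 4 genes in 2 of 13 and Tmprss6 in 0. Cldn9 was lowest in 11 of 13, with 11.6 ± 4.96 CPM per kb. On the same scale Gnrh1 averaged 15485 CPM per kb, so each of the 4 genes was a minor transcript beside the hormone.

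The levels of the 4 genes were related to that of Gnrh1 from library to library. The relation was computed on log2(CPM + 0.5), first within the 9 immunoprecipitates numbered 11 to 30, since the Gnrh1 levels of the other 4 did not overlap theirs. There, Pearson's r with Gnrh1 was 0.78 for Rab25, 0.75 for Epcam, 0.84 for Cldn9 and 0.76 for Tmprss6 (two-sided exact permutation p, adjusted over the 4 relations, 0.0232, 0.0238, 0.0208 and 0.0232). Spearman's rho was 0.83, 0.65, 0.63 and 0.70, with adjusted exact permutation p of 0.0331, 0.0760, 0.0760 and 0.0760, so the rank relation passed for Rab25 alone. Without the 2 libraries farthest from the median of Gnrh1, replicate 2 of the ovariectomized females and replicate 2 of the orchidectomized males, r over the remaining 7 was 0.48, 0.72, 0.83 and 0.56. None of these passed (adjusted exact permutation p of 0.255, 0.132, 0.132 and 0.255), with r little changed for Epcam and Cldn9 and lower for Rab25 and Tmprss6. Leaving out the pull-down of intact female replicate 2, the lowest in Gnrh1, or that of orchidectomized male replicate 2 each ended the call for all 4 genes (r of 0.66 to 0.77 and of 0.66 to 0.78, adjusted exact permutation p of 0.0628 and of 0.0680 to 0.0782). Leaving out ovariectomized female replicate 2 ended it for Rab25 and Tmprss6 (r of 0.70 each, adjusted exact permutation p of 0.0633). The genes were chosen on these same libraries, so none of these p-values is independent evidence.

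Over all 13 immunoprecipitates r was 0.89 for Rab25, 0.87 for Epcam, 0.67 for Cldn9 and 0.65 for Tmprss6 (permutation test with 100000 resamples, adjusted p of 0.00036, 0.00036, 0.0121 and 0.0121). The rho values were 0.94, 0.82, 0.60 and 0.65, with adjusted permutation p of 8e-05, 0.00192, 0.0328 and 0.0246. These pooled values span both sets of Gnrh1 levels. Without intact female replicate 0 and intact male replicate 1, the 2 farthest from the median of Gnrh1, r over 11 libraries was 0.84, 0.90, 0.83 and 0.70. Without intact female replicate 2, r fell to 0.56 for Cldn9 and 0.55 for Tmprss6, and neither passed (adjusted permutation p of 0.0608 for both). After the mean of each condition was subtracted, r was 0.90 for Rab25, 0.90 for Epcam, 0.88 for Cldn9 and 0.81 for Tmprss6. The intact groups still hold libraries of both number sets, so these values keep the step in Gnrh1 between the sets. On numbers 11 to 30 alone, with condition means subtracted, r was 0.84, 0.88, 0.77 and 0.74, and rho was 0.77, 0.73, 0.63 and 0.63. Intact females are a single library there. As a description across genes, which are not independent, 2.53% of 11501 genes had an r with Gnrh1 over the 13 libraries at or above that of Rab25, 3.68% that of Epcam, 14.3% that of Cldn9 and 15.3% that of Tmprss6. Within numbers 11 to 30 those shares were 1.03%, 1.42%, 0.417% and 1.19%.

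**Figure D2:**
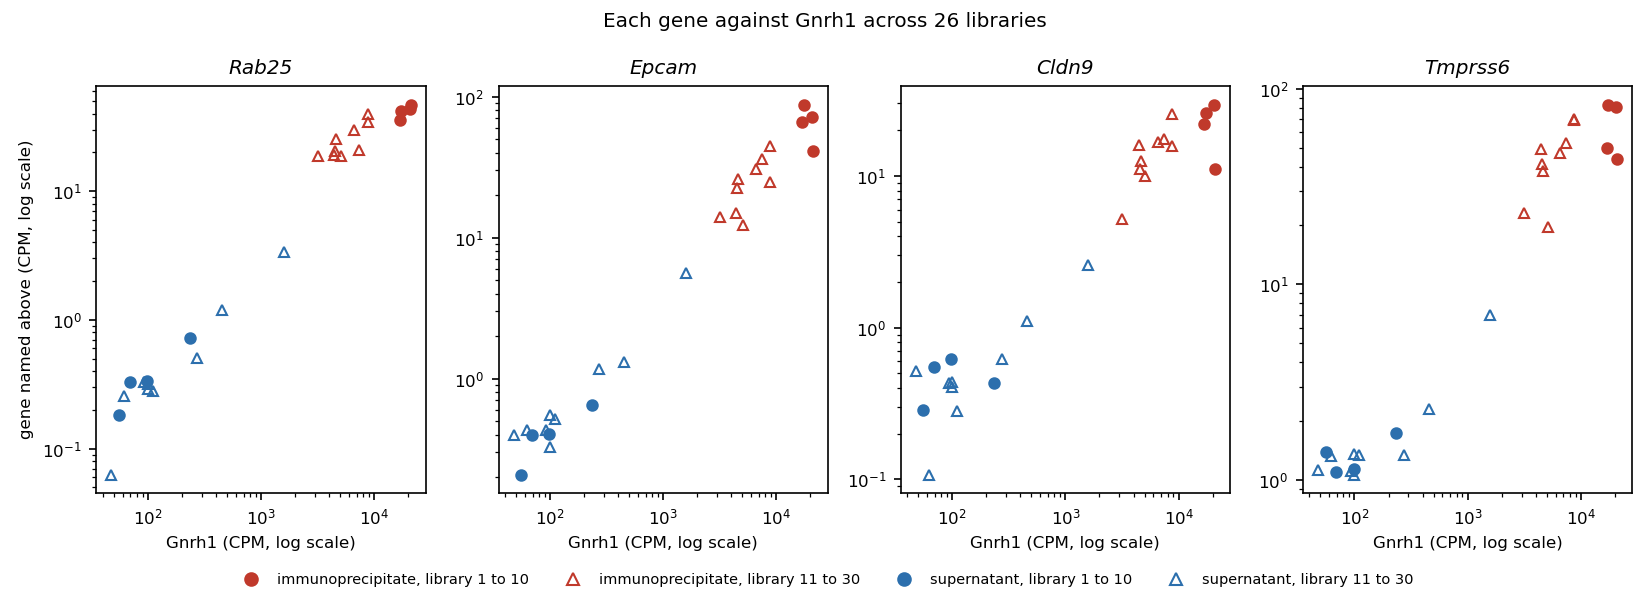
Each gene against Gnrh1 in the 26 libraries, both axes in CPM on log scales. Red marks are immunoprecipitates and blue marks supernatants, filled circles have library numbers 1 to 10 and open triangles 11 to 30. The supernatant with Gnrh1 at 1579 CPM also holds the highest supernatant level of all 4 genes, and the 4 red circles above 16896 CPM of Gnrh1 extend the cloud of the other pull-downs upward for Epcam more than for Cldn9.

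The relation was also computed in the supernatants. Over the 13 supernatants r with Gnrh1 was 0.97 for Rab25, 0.94 for Epcam, 0.86 for Cldn9 and 0.88 for Tmprss6, with rho of 0.82, 0.84, 0.51 and 0.61 (adjusted permutation p for r of 8e-05, 0.00012, 0.00208 and 0.00149). For rho the adjusted permutation p was 0.00192, 0.00192, 0.0826 and 0.0410, so the rank relation of Cldn9 did not pass. With intact female replicate 2 alone left out, that of Tmprss6 did not pass either (rho of 0.50, adjusted permutation p of 0.131). Without intact female replicate 2 and ovariectomized female replicate 1, the 2 farthest from the median of Gnrh1, r over 11 supernatants was 0.89 for Rab25 and 0.83 for Epcam (adjusted permutation p of 0.00264 and 0.00432). It was then 0.35 for Cldn9 and 0.51 for Tmprss6 (adjusted permutation p of 0.276 and 0.181), so for those genes the relation rests on these 2 libraries. Rab25 had counts of 3 to 188 and Cldn9 of 5 to 144 in the supernatants, so counting error is large in single libraries. These libraries also took part in the choice of the genes, so these p-values are not independent evidence.

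The amount of each gene per unit of Gnrh1 does not depend on library size. In the immunoprecipitates the medians per 1000 Gnrh1 counts were 3.93 for Rab25, 4.44 for Epcam, 1.95 for Cldn9 and 7.16 for Tmprss6. In the supernatants, where Gnrh1 was far lower, they were 3.08, 4.26, 4.07 and 11.97. The ranges of both fractions overlapped for every gene: Rab25 ran from 2.11 to 5.87 in the pull-downs and from 1.32 to 4.80 in the supernatants. Epcam ran from 1.96 to 5.65 and from 2.74 to 8.34. Cldn9 ran from 0.530 to 3.61 and from 1.64 to 10.98, and Tmprss6 from 2.08 to 11.1 and from 4.42 to 25.2. The supernatant median was 2.09 times that of the pull-downs for Cldn9 and 1.67 times for Tmprss6. Differences between fractions in these ratios were not tested.

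The pull-downs themselves differed by library number on this measure. Rab25 stood between 2.11 and 2.39 per 1000 Gnrh1 counts in the 4 libraries numbered 1 to 10 and between 2.81 and 5.87 in the other 9. Gnrh1, the divisor, is itself apart between these sets, and how many other genes differ likewise on this measure was not counted. The medians were 2.18 and 4.54 for Rab25, 3.69 and 4.70 for Epcam, 1.36 and 2.43 for Cldn9, and 3.42 and 7.90 for Tmprss6. Between the same sets the CPM of each gene stood higher in the first, with means of 42.0 and 25.3 for Rab25, 66.7 and 25.1 for Epcam, 22.1 and 14.4 for Cldn9, and 64.2 and 45.6 for Tmprss6. Mean Gnrh1 was 18980 and 5924 CPM, a larger ratio than for any of the 4 genes. The part of the numbering in these values was not tested, and the 4 pools numbered up to 10 were all intact.

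**Figure D3:**
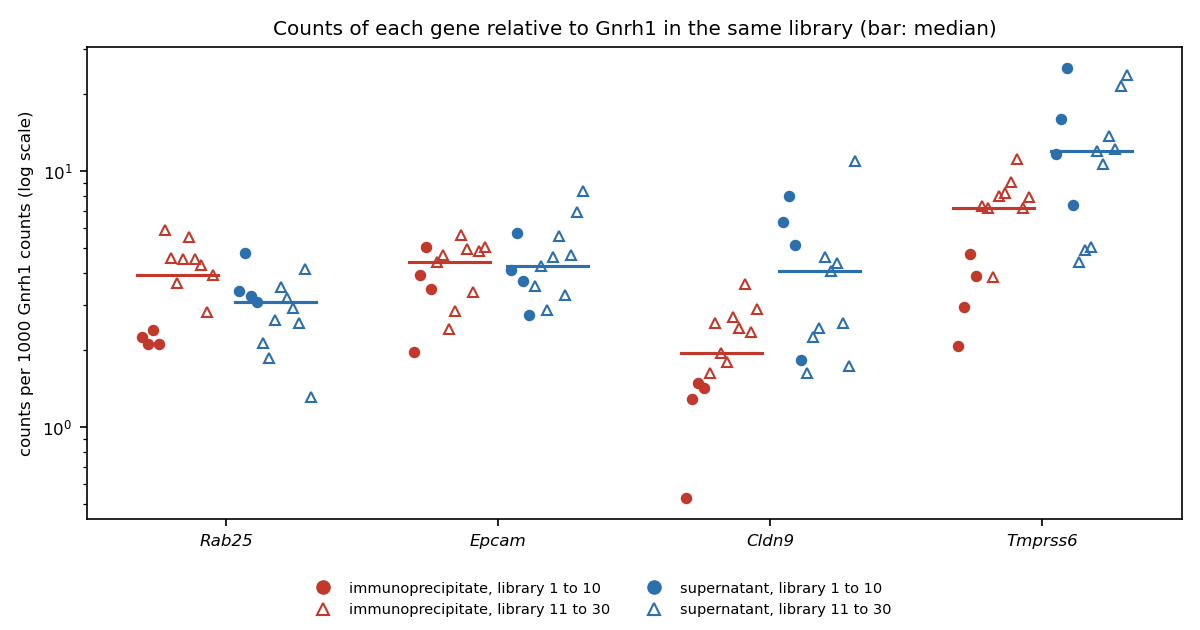
Counts of each gene per 1000 Gnrh1 counts in the same library, on a log scale, with the 13 immunoprecipitates in red and the 13 supernatants in blue. Bars are medians, filled circles library numbers 1 to 10 and open triangles 11 to 30. The Rab25 and Epcam medians of both fractions lie close together (3.93 and 3.08, 4.44 and 4.26), while Cldn9 and Tmprss6 lie higher in the supernatants (4.07 and 11.97).

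The 4 genes also varied together across the 13 immunoprecipitates. Pearson's r between pairs ran from 0.60 for Rab25 with Cldn9 to 0.87 for Cldn9 with Tmprss6, and all 6 pairs passed (permutation test, p adjusted over the 6 pairs between 0.00096 and 0.0282). Within numbers 11 to 30, 4 of the 6 pairs passed (exact permutation test, adjusted), and Rab25 with Epcam (r = 0.66) and Rab25 with Cldn9 (r = 0.60) had adjusted exact permutation p of 0.0592. The 13 libraries span both sets of Gnrh1 levels. The genes were also chosen together on these same libraries, so none of these p-values is independent evidence. How closely pairs of other enriched genes vary together was not tested.

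The genes most like them were named by Pearson's r on the same log2 scale, among 11498 to 11501 genes averaging at least 5 CPM in the pull-downs. Over all 26 libraries, where the contrast of fractions dominates, the 8 highest mean r values to the 4 genes belonged to Gng8, Arg1, Prph, Otx1, Rd3, Cldn7, Ccdc68 and Tstd1, from 0.985 down to 0.981. Gnrh1 came at place 11 with 0.978, predicted genes left out. Over the 13 immunoprecipitates alone, Rab25 was most like Rd3 (r = 0.95), Isl1 (0.95) and Ech1 (0.94). Epcam was most like Gng8 (0.94), Dynlt1b (0.93) and Fam69b (0.91). Cldn9 and Tmprss6 shared their nearest gene, Ache, which encodes acetylcholinesterase, with r of 0.94 and 0.93. Cldn9 was next most like Cldn7 (0.91) and Pdia6 (0.90), and Tmprss6 like Nlgn1 and Arxes1 (0.89 each). These 13 libraries span both sets of Gnrh1 levels, and the nearest genes changed within numbers 11 to 30. There they were Rd3 for Rab25 (0.96), Slc35c2 for Epcam (0.97), Lass5 for Cldn9 (0.96) and BC018242 for Tmprss6 (0.95). Gnrh1 stood at places 20, 20, 335 and 304 for Rab25, Epcam, Cldn9 and Tmprss6 over the 13 libraries. Within numbers 11 to 30 its places were 70, 436, 95 and 314. All these values rank genes on shared libraries and carry no test.

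No effect of sex or gonadectomy on the 4 genes was detected beyond the spread between pools in the immunoprecipitates. In the fit over the 13 pull-downs, 0 of 4 genes were called for gonadectomy in females (0% of 16160 genes called), gonadectomy in males (0%), sex in intact mice (0.0248%), sex in gonadectomized mice (0.0186%) or the difference between both gonadectomy effects (0%). None of the 4 had an unadjusted p under 0.05 in edgeR's test in any of these 5 contrasts, and DESeq2 also called 0 of 4 in each. Over all genes, 591, 1509, 664, 1388 and 535 had an unadjusted p under 0.05, and DESeq2 called 5, 24, 19, 30 and 5. The background was therefore close to 0 as well. With 3 or 4 pools a group the intervals were wide, and a p above the threshold does not show that levels were alike.

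After ovariectomy Rab25 averaged 29.5 ± 10.7 CPM against 33.8 ± 14.3 in intact females (SD, n = 3 each), a log2 difference of -0.19 with a 95% interval of -1.09 to 0.70. Epcam averaged 22.7 ± 9.47 against 40.5 ± 26.1 CPM, a log2 difference of -0.84 (-2.20 to 0.53). Cldn9 differed by 0.15 on the log2 scale (-0.95 to 1.25) and Tmprss6 by 0.23 (-0.73 to 1.19). After orchidectomy Rab25 averaged 24.8 ± 8.40 CPM (n = 3) against 32.8 ± 11.5 (n = 4), a log2 difference of -0.41 (-1.25 to 0.43). Epcam averaged 31.8 ± 15.1 against 52.0 ± 32.8 CPM, a log2 difference of -0.71 (-1.995 to 0.57). Cldn9 differed by -0.01 (-1.04 to 1.02) and Tmprss6 by -0.09 (-0.98 to 0.81). Every adjusted p from edgeR was between 0.697 and 0.997.

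The direction of 6 of these 8 gonadectomy estimates changed with the library numbering. All pools numbered 1 to 10 were intact, and the part of the numbering was not tested. On numbers 11 to 30 alone, with 1 intact female and 2 intact male pools left, ovariectomized minus intact became 0.67 for Rab25 and 0.69 for Epcam on the log2 scale, and kept its direction at 1.45 for Cldn9 and 0.98 for Tmprss6. The female values rest on that 1 intact pool, which is assumed to vary like the other groups. Orchidectomized minus intact became 0.10 for Rab25, 0.39 for Epcam, 0.74 for Cldn9 and 0.52 for Tmprss6. No gene was called in either case (adjusted p from edgeR between 0.803 and 1). No library of a gonadectomized mouse has a number up to 10.

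Between the sexes, intact males minus intact females gave -0.04 for Rab25 (95% interval -0.88 to 0.79), 0.36 for Epcam (-0.91 to 1.63), 0.63 for Cldn9 (-0.41 to 1.68) and 0.64 for Tmprss6 (-0.27 to 1.55) on the log2 scale. Tmprss6 averaged 60.6 ± 24.4 CPM in intact males (n = 4) and 38.9 ± 13.9 in intact females (n = 3), and their ranges overlapped. In gonadectomized mice, males minus females gave -0.26 for Rab25 (-1.15 to 0.64), 0.49 for Epcam (-0.87 to 1.84), 0.48 for Cldn9 (-0.63 to 1.58) and 0.32 for Tmprss6 (-0.63 to 1.28). Every adjusted p from edgeR was between 0.830 and 0.999. Ordered by mean, the conditions ran from intact females at 33.8 to orchidectomized males at 24.8 CPM for Rab25, and from intact males at 52.0 to ovariectomized females at 22.7 CPM for Epcam. They ran from intact males at 19.7 to intact females at 12.7 CPM for Cldn9, and from intact males at 60.6 to intact females at 38.9 CPM for Tmprss6. The ranges of neighbours overlapped in each order.

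**Figure D4:**
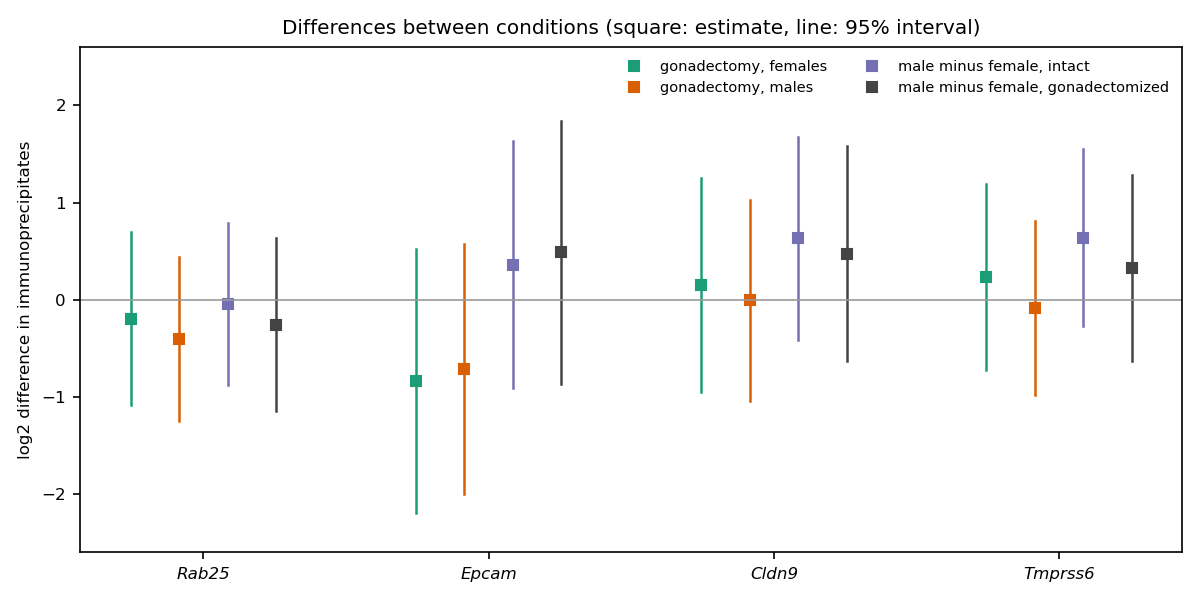
Log2 differences between conditions in the immunoprecipitates for the 4 genes, from the fit over 13 libraries. Squares are estimates and lines their 95% intervals. Green is ovariectomized minus intact females, orange orchidectomized minus intact males, purple males minus females among intact mice and grey the same among gonadectomized mice. All 16 intervals include 0, and the widest, for Epcam after ovariectomy, runs from -2.20 to 0.53.

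In the supernatants counts were low, and 1 library set the largest difference. The fit over the 13 supernatants called 0 of 4 genes for gonadectomy in females (0.0122% of 16360 genes called), gonadectomy in males (0%), sex in intact mice (0.0428%) or sex in gonadectomized mice (0.0428%). In intact mice all 4 genes had an unadjusted p under 0.05 in edgeR's test, with males lower than females by -1.83 for Rab25, -2.29 for Epcam, -1.66 for Cldn9 and -1.13 for Tmprss6 on the log2 scale (adjusted p of 0.861 for each). Without the supernatant of intact female replicate 2 the estimates were 0.19, 0.13, -0.56 and 0.32 (adjusted p from edgeR of 0.835 to 0.967). Over numbers 11 to 30 alone, where that library is the single intact female, Epcam at -3.66 and Tmprss6 at -2.50 passed edgeR's test (adjusted p of 0.0335 and 0.0466), with that 1 library assumed to vary like the other groups. In the fit over all 13 supernatants DESeq2 gave no p for Epcam and Tmprss6, and it was not run on numbers 11 to 30 alone. In the other 3 supernatant contrasts none of the 4 had an unadjusted p under 0.05 in edgeR's test. For sex in gonadectomized mice, Rab25 had an unadjusted p of 0.0820 from edgeR and 0.0394 from DESeq2 (log2 difference of -1.72 and -1.77). DESeq2 gave no adjusted p for any of the 4 genes in that contrast. Over all genes, 1196, 446, 607 and 3445 had an unadjusted p under 0.05 in the 4 contrasts, and DESeq2 called 8, 5, 10 and 1257.

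Of the nearest protein-coding genes on each side, 7 of which were tested, Cldn6 stood far above the others, which lay between -0.31 and 0.48 on the log2 scale. Beside Rab25, Mex3a (0.48 on the log2 scale, adjusted p = 0.0646) was not called and Lamtor2 rose by 0.45 (adjusted p = 0.00176, edgeR). Beside Epcam, Calm2 rose by 0.28 (adjusted p = 0.000605, edgeR). Beside Tmprss6, Kctd17 was at 0.14 (adjusted p = 0.115, edgeR), and Il2rb did not pass the filter on low counts. Beside Cldn9, Pkmyt1 was at -0.31 (adjusted p = 0.437, edgeR), while Cldn6, another claudin gene whose end lies 138 bases from that of Cldn9 on the opposite strand, rose by 4.13 (adjusted p = 0.00173, edgeR). Cldn6 averaged 0.750 CPM in the pull-downs against 16.8 for Cldn9. The library kit does not mark the strand, so reads past the end of either gene cannot be told apart from those of the other.

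The remaining genes of the same families and pathways are described by their counts in the comparison of fractions, with each p from edgeR's quasi-likelihood test adjusted over all tested genes. The median of all 16713 tested genes was -0.06 on the log2 scale, with 21.3% called higher and 21.6% lower. Of 22 claudins beside Cldn9, 12 passed the filter on low counts and were tested, and of these 5 rose and 1 fell, with a median of 0.20 (with the pool as a block, 2 fell). Cldn7 rose by 4.57, Cldn3 by 3.75 and Cldn6 as above, all from under 1 CPM in the supernatants, and the broadly expressed Cldn12 rose by 0.57. Cldn5, the claudin of brain endothelium, rose by 1.34. The summed CPM of the 6 endothelial markers, Cldn5 among them, ran from 8.89 to 228 in the pull-downs and from 8.91 to 27.2 in the supernatants, with medians of 24.5 and 14.2. The 228 CPM came from orchidectomized male replicate 0 alone, and the next pull-down held 69.0 CPM. The part of endothelial cells in the Cldn5 value was not tested. Cldn11, the claudin of myelin, fell by 2.22 on the log2 scale.

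Epcam's neighbours at the epithelial surface were mixed. Of 24 tested genes of 25 for epithelial junctions and polarity, 7 rose and 2 fell, with a median of 0.05 (4 fell with the pool as a block, and 4 rose on numbers 11 to 30 alone). Crb3, a polarity protein of the apical membrane, rose by 2.94, F11r, the junctional adhesion molecule A gene, by 2.69 and Marveld2, the tricellulin gene, by 2.63. Itgb4 fell by 0.46 and Patj by 0.43 on the log2 scale. Cdh1, the E-cadherin gene, was at 1.38 and did not pass (adjusted p = 0.0637), and the tight-junction genes Ocln at 0.69 and Tjp1 at -0.13 did not either. Of 19 tested keratins and desmosomal genes of 20, 3 rose and 3 fell, with a median of -0.27. On numbers 11 to 30 alone 1 rose and 0 fell, and without the supernatant of intact female replicate 2 only 1 fell. Krt8, a keratin of simple epithelia, rose by 3.97 and its partner Krt18 by 1.19. Krt19 fell by 0.91 and Evpl by 0.48 on the log2 scale.

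Among 15 tested of 18 transcription and splicing factors of epithelia, 4 rose and 5 fell, with a median of -0.15 (on numbers 11 to 30 alone, 3 rose and 2 fell). Grhl1, a grainyhead-like factor, rose by 0.85, while Klf5 fell by 0.68 on the log2 scale. Of the other grainyhead-like genes, Grhl2 fell by 2.43 (adjusted p = 0.0179, edgeR) and Grhl3 was at -0.04 and did not pass. Esrp1, an epithelial splicing regulator, rose by 3.44 to 1.58 CPM, while Ehf, Trp63 and Tfap2a fell. Esrp1, Grhl2, Ehf, Trp63 and Tfap2a averaged under 1 CPM over all libraries and are named here after their values were seen. Of the 7 repressors of epithelial genes, 1 rose and 3 fell, with a median of -0.59. Zeb2 fell by 0.97 and Zeb1 by 0.71 on the log2 scale, while Snai2 rose by 2.22, from 1.79 to 8.77 CPM. With DESeq2, or with its size factors, 2 of the 7 rose. Whether any of these factors acts on the E2 boxes shown above was not measured.

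The recycling pathway of Rab25 did not move with it as a whole. Of 26 tested genes of the Rab11 pathway, 4 rose and 12 fell, with a median of -0.30 (2 rose and 6 fell on numbers 11 to 30 alone). Rab11fip1, which encodes the Rab-coupling protein that binds Rab25 and Rab11, rose by 1.45, Rab11fip2 by 0.29, Rab3ip by 0.25 and Rab11a by 0.24. Rab11fip4 fell by 1.43, Rab11fip5 by 1.30, the exocyst gene Exoc8 by 0.59 and Exoc6b by 0.52 on the log2 scale. Among 11 tested of 19 membrane serine proteases and inhibitors, 2 rose and 4 fell, with a median of -0.58 (on numbers 11 to 30 alone, 2 fell). Both genes that rose encode inhibitors of such proteases, Spint1 by 2.18 and Spint2 by 1.39. The 4 proteases that fell averaged under 1 CPM.

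Of 28 genes of the iron pathway in which Tmprss6 acts in liver, 26 were tested, 2 rose and 4 fell, with a median of -0.18 (7 fell with the pool as a block). Slc40a1, the ferroportin gene of iron export, rose by 1.48 and Ftl1, a ferritin chain, by 0.51. Trf, the transferrin gene, fell by 0.89, Bmp2 by 0.82, Smad4 by 0.59 and Smad7 by 0.46 on the log2 scale. The gene of the Tmprss6 substrate hemojuvelin, Hfe2, was at 0.07 (adjusted p = 0.785), Bmp6 at -0.14 and Tfr2 at 0.27, and none of these passed. Hamp, the hepcidin gene, did not pass the filter on low counts.

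Of 20 tested of 22 factors of the placodes and forebrain midline, 7 rose and 3 fell, with a median of 0.37. Otx1 rose by 5.36, Six6 by 4.01 and Eya2 by 1.34. Sox2 fell by 0.46 and Sox3 by 0.39 on the log2 scale.

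**Figure D5:**
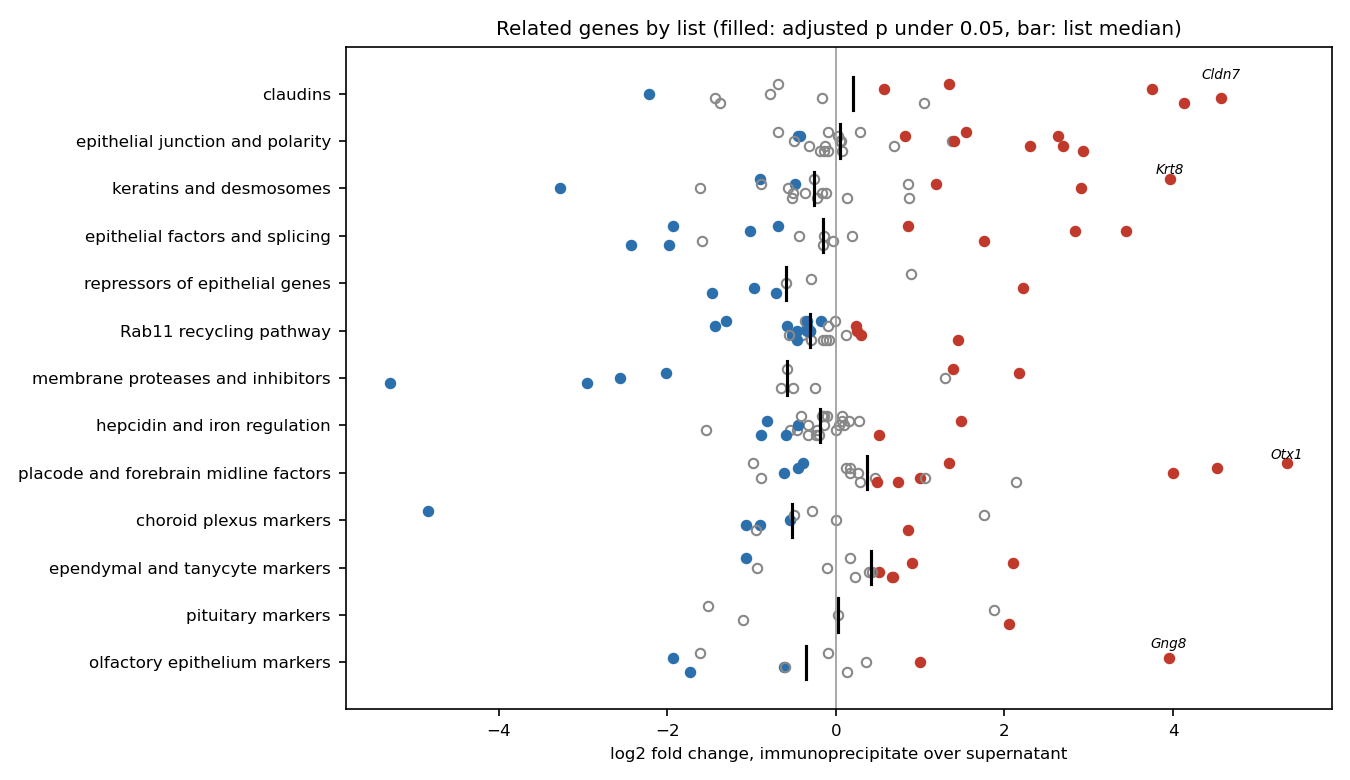
Log2 fold change of immunoprecipitate over supernatant for the tested genes of 13 related lists, the 4 chosen genes left out. Filled red marks were called higher and filled blue marks lower at an adjusted p under 0.05, open marks were not called, black bars are list medians, and a name marks a list's highest called gene averaging at least 1 CPM where its log2 fold change exceeds 3. The 13 medians lie between -0.59 and 0.41, and Otx1 at 5.36, Cldn7 at 4.57 and Krt8 at 3.97 lie far to the right of their lists.

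A punch could also hold other cells that express epithelial genes, and their markers were counted in the same way. Of 10 tested choroid plexus markers 1 rose and 4 fell, and their summed CPM ran from 66.4 to 143 in the pull-downs and from 89.1 to 154 in the supernatants. The largest levels in these sums were those of Enpp2 (means of 31.1 and 45.6 CPM), Clic6 (22.2 and 41.4) and Prlr (20.7 and 20.2). Ttr, which choroid plexus makes in abundance, averaged 1.29 CPM in the pull-downs and 1.49 in the supernatants. Of 12 ependymal and tanycyte markers 5 rose and 1 fell, with sums of 162 to 336 and of 95.3 to 180 CPM. Among them Rsph1 rose by 2.11, to 124 CPM, while Foxj1, the factor that defines ciliated ependyma, fell by 1.07 on the log2 scale. Of 5 tested pituitary markers 1 rose and 0 fell (0 rose with the pool as a block), with sums of 0.478 to 5.87 and of 0.907 to 2.05 CPM. Fshb and Pou1f1 were at 0 in all 13 pull-downs.

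Of 10 tested markers of olfactory and vomeronasal epithelium, 2 rose and 3 fell (1 rose with the pool as a block), with sums of 613 to 1093 and of 701 to 823 CPM. Most of these sums came from Calb2, with means of 441 and 396 CPM, and Gnal, with 198 and 304 CPM. Omp averaged only 4.03 CPM in the pull-downs and 6.15 in the supernatants. Gng8, the vomeronasal G-protein gamma subunit gene, rose by 3.95, to 88.3 CPM, while Omp, which defines mature olfactory neurons, was at -0.61 (adjusted p = 0.174) and Reg3g was at 0 in all 13 pull-downs. The part of these cell types in the levels of Rab25, Epcam, Cldn9 and Tmprss6 was otherwise not tested.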

How the data were processed

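The deposited table holds estimated counts per gene from the authors, of which 1.46% of values were not whole, and these were rounded before testing. The submitters' processing notes name mm10 and, in no stated order, Cuffdiff 2.1.1, Bowtie2 2.1.0, TopHat2 2.0.9, FastQC and Cufflinks. For annotation and multiply mapped reads the setting is not given in the sources used here, and reads shared between close relatives, such as claudins, stay uncertain. Per the labels' protocols, cDNA came from very little RNA by a kit that does not mark strand, and without molecular identifiers, so intervals from counts cover counting error only.

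Fits used edgeR 4.0.16 in R 4.3.3 with TMM factors, filterByExpr (minimum count 10, minimum total 15) and quasi-likelihood F-tests, two-sided. Benjamini-Hochberg adjustment covered all tested genes, with calls at an adjusted p under 0.05. Fractions were compared over 26 libraries in 8 groups, and conditions over the 13 libraries of a fraction. DESeq2 1.42.0 was the alternative tool. Correlations used scipy 1.17.1. The fits were also run on simulated data, whose outcome is not reported here and is not used as support.

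The members and the 13 gene lists (237 genes, all matched) were chosen with earlier results of these data known. Named were the members, Gnrh1, the nearest gene on each side of a member, up to 4 called genes per direction of each list with at least 1 CPM over all libraries, and the 3 or 8 genes with the nearest pattern, predicted genes left out.

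Per the labels, both RNAs of a pool come from the same animals. Their deviations from the group means correlated at 0.014 to 0.17 over genes. Across conditions a replicate number is only a number. Chi-square per degree of freedom was at least 4.60 for every pair of replicates, so each library counted as its own replicate. Some genes that this naming rule selects are not reported here.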

Additional observations from a re-analysis of the deposited data

How the results depend on the processing

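The results were recomputed with DESeq2, with its size factors, without the filter on low counts, with a block for the pool or the replicate number, with a term for the library numbering, on numbers 11 to 30 alone, with other pseudocounts, and without each library. Of 1609 values, most of them from leaving out 1 library, 1476 kept their direction and side of the threshold, or for counts and values without a test stayed close. Another 79 moved, 40 changed direction, 12 lost a call and 2 gained one. For the fold changes of the 4 genes, close means within the SD of the pool ratios, 1.21 to 1.89 on the log2 scale, which is a wide margin. Many of the tests lay far from the threshold, so this share is no measure of stability. Pools of 3 or 4 a group and supernatant counts as low as 3 limit what could be detected. The relations within numbers 11 to 30 and across supernatants, and their alternatives, were chosen after seeing the data. Where no cause is evident from fewer libraries or genes, the cause was not tested.

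The pool as a block gave log2 fold changes of 6.06 for Rab25, 5.61 for Epcam, 4.88 for Cldn9 and 4.94 for Tmprss6. With this block 2 claudins, 4 junction genes and 7 iron genes fell, and 0 pituitary and 1 olfactory marker rose. The block changed no other list count by over 1.5 times. A replicate block between conditions, whose pools share only a number, turned Rab25 between the sexes of intact mice to 0.14 and changed no call of the 4 genes.

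The numbering term gave 0.56 for Rab25 and 0.60 for Epcam after ovariectomy, and 0.15 for Rab25, 0.43 for Epcam, 0.82 for Cldn9 and 0.52 for Tmprss6 after orchidectomy, with 0.15 for Rab25 between intact sexes and 0 pituitary markers higher. Numbers 11 to 30 alone gave 0.67, 0.69, 0.10, 0.39, 0.74 and 0.52 for the same 6 gonadectomy values, with 0.30 for Rab25 between intact sexes. There 2 of the 4 genes were called between intact supernatants, Epcam at -3.66 and Tmprss6 at -2.50, with the supernatant of intact female replicate 2 as the 1 library of its group. There also 4 junction genes, 1 keratin gene, 2 Rab11 genes, 1 iron gene, 1 olfactory marker and 0 pituitary markers rose, while 0 keratin genes, 2 epithelial factors, 6 Rab11 genes, 2 proteases and 1 olfactory marker fell. DESeq2's size factors gave 1 junction gene lower and 2 repressors higher, DESeq2 2 repressors higher, and no filter 2 claudins, 1 pituitary and 5 olfactory markers lower.

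Leaving out 1 library moved the genes that fell to between 1 and 2 claudins, 1 and 4 junction genes, 1 and 4 keratin genes, 2 and 6 epithelial factors, 4 and 7 iron genes, 1 and 2 ependymal, 0 and 1 pituitary, and 1 and 5 olfactory markers. Those that rose moved to between 1 and 2 repressors and 0 and 1 pituitary markers. Ovariectomy differences ran from -0.47 to 0.12 for Rab25, -0.20 to 0.80 for Cldn9 and -0.22 to 0.59 for Tmprss6. Orchidectomy differences ran from -0.23 to 0.25 for Cldn9 and -0.24 to 0.10 for Tmprss6. Between intact sexes Rab25 ran from -0.34 to 0.27 and Epcam from -0.060 to 0.92, and between gonadectomized sexes Rab25 from -0.60 to 0.025 and Tmprss6 from -0.037 to 0.78. Between intact supernatants Rab25 ran from -2.30 to 0.19, Epcam from -2.79 to 0.13 and Tmprss6 from -1.54 to 0.32. The r with Gnrh1 over 13 pull-downs ran from 0.56 to 0.86 for Cldn9 and from 0.55 to 0.75 for Tmprss6. Within numbers 11 to 30 it ran from 0.70 to 0.90 for Rab25, 0.66 to 0.82 for Epcam, 0.72 to 0.92 for Cldn9 and 0.66 to 0.92 for Tmprss6.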
